A study of Homo sapiens with 6 samples.

Results

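The interferon regulatory factors (IRF) are transcription factors that carry interferon and pathogen signals to DNA. The members described here are IRF1, IRF2, IRF3, IRF4, IRF5, IRF7, IRF8 and IRF9, 8 genes of the 19923 in the deposited table, found by gene symbol without the IRF2BP genes, which encode binding proteins of IRF2. They are not every IRF gene of the table, and statements on the members cover these 8 alone. The family was selected on measured values, with its log2 fold changes of ENL against control known from earlier results, so the members' values below describe these libraries and no p-value is given for a member. RNA sequencing was done on BT549, an established human line of triple-negative breast cancer with mesenchymal features, with 3 libraries whose treatment is labelled ENL and 3 labelled control. What ENL stands for is not spelled out, and no dose, time or vehicle is stated. Whether libraries of a group are separate cultures is not stated either, so the p-values given here speak of library-to-library spread, which may be technical. All results hold for a single cell line.

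IRF proteins share an amino-terminal DNA-binding domain and recognise GAAA repeats, as in the interferon-stimulated response element (ISRE). IRF3, IRF5 and IRF7 lie inactive in the cytosol until kinases downstream of sensors of viral nucleic acid phosphorylate them, after which they switch on interferon genes. IRF9 binds DNA as part of ISGF3, the complex that drives interferon-stimulated genes, and IRF1 is itself induced by interferon and inflammatory signals, whereas IRF2 binds the same motif and can oppose it. IRF4 and IRF8 are best known in lymphoid and myeloid cells.

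Totals of the deposited estimated counts were 74457932 to 85310759 per ENL library and 76387436 to 80964005 per control library. A sequenced fragment was taken as worth about 4 units. On the second principal component (14.3% of the variance) ENL library 3 lay at -55.8, away from ENL libraries 1 and 2 at 22.05 and 26.3. The labels call the source mammary epithelial tissue, and the line was checked against markers: the mesenchymal gene VIM had 5372 to 6289 CPM (normalised counts scaled to library size) in ENL and 2481 to 3267 CPM in control, and 4 of 11 mesenchymal markers rose while 3, SPARC, COL1A2 and THY1, fell. Epithelial markers were mixed: EPCAM had at most 0.249 CPM in ENL and 0.129 CPM in control, CDH1 at most 0.191 CPM in ENL and 0.358 CPM in control, and PGR was at 0 in all 6 libraries, but the keratin genes KRT8 and KRT18 had 33.2 to 40.5 and 21.7 to 27.4 CPM in ENL, against 13.2 to 18.0 and 23.1 to 31.3 CPM in control. Of 12 tested epithelial markers 3 rose, KRT7, KRT8 and ELF3, and 2 fell, KRT5 and ERBB2. For comparison, 20.0% of all tested genes rose and 18.4% fell. The part of the epithelial and mesenchymal marker differences in the results below was not tested. In bulk RNA, fewer cells that express a gene and less RNA per cell cannot be told apart.

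Promoters are shown for IRF1 and IRF9, the members with the largest differences, and for IRF5, which differed less than its spread. They are RefSeq windows of 300 bases on GRCh38.p14, from 250 bases before to 50 bases after an annotated start, and 5 of the 8 members (IRF1, IRF4, IRF5, IRF8 and IRF9) had an entry. IRF2, IRF3 and IRF7 had none in that table. The windows shown are chr5:132490724-132491023 on the minus strand, chr14:24161015-24161314 on the plus strand and, the first of 4 for IRF5, chr7:128937677-128937976 on the plus strand. Capitals mark matches to the motifs searched.
IRF1 promoter: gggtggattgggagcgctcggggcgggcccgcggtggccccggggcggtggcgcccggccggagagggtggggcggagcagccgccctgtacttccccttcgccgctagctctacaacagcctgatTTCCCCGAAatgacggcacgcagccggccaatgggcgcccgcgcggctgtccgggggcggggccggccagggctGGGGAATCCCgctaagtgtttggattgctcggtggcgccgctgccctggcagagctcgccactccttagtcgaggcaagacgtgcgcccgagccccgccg
IRF9 promoter: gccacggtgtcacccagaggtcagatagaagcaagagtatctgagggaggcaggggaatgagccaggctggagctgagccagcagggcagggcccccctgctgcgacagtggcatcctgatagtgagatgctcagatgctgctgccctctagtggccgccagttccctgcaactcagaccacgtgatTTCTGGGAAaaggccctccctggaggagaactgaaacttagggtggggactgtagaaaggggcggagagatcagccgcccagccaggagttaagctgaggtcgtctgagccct
IRF5 promoter: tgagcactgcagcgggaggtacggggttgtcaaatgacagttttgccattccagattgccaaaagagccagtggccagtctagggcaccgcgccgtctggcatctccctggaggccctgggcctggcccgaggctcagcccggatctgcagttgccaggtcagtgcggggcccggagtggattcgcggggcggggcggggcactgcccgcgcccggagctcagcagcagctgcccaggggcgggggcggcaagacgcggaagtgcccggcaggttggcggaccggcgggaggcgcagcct

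Motifs were searched on both strands: the STAT site GAS (TTCNNNGAA), the ISRE core (GAAA, any 2 bases, GAAA), the NF-kB site kappaB, the cyclic AMP element CRE (TGACGTCA), the AP-1 site (TGANTCA) and the TATA box (TATAAA). The IRF1 window held a GAS match, TTCCCCGAA, whose first base lay at position -124 from the start site. It also held a kappaB match, GGGGAATCCC, from position -50, and the 2 matches did not overlap. The IRF9 window held a GAS match, TTCTGGGAA, from position -63. This window begins at 24161015 and the gene at 24161053, so the match lies after the outermost annotated start of IRF9. Among 35116 promoter windows of the same length, 7.66% held a GAS match and 11.3% a kappaB match. None of the 9 member windows held an ISRE, CRE or AP-1 match, which were found in 3.57%, 1.85% and 7.71% of all windows. Of the 9 windows, 4 were from IRF5. The IRF8 windows begin at 85902580 and 85902765, inside the gene, which begins at 85898803, so they do not cover its outermost annotated start. Nor do the IRF5 windows, the first of which begins at 128937677, while the gene begins at 128937612. TATA matches, found in 11.5% of all windows, stood at position -32 in the IRF4 window and at -188 in the third IRF5 window. A match describes the letters and is not evidence of binding.

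In edgeR's quasi-likelihood fit over all genes, 6 members had enough counts to be tested, and IRF4 and IRF8 did not. At the threshold used for all genes (adjusted p below 0.05), 38.4% of the 14086 genes tested passed in either direction, 20.0% as higher and 18.4% as lower. Of the members, IRF1, IRF2, IRF7 and IRF9 fell among the genes called higher and IRF3 and IRF5 among those not called. Since the family was proposed with this contrast in view, these calls only describe the members, are no test of them, and nothing is read from their count. The groups of libraries did not overlap for 5 of the 6 tested members, and for 54.0% of all tested genes. ENL lay above control for 4 of these members and 26.4% of all tested genes, and below for 1 member and 27.6% of all tested genes. The median log2 fold change of the 6 tested members was 0.86, beside -0.02 over all tested genes.

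**Figure D1:**
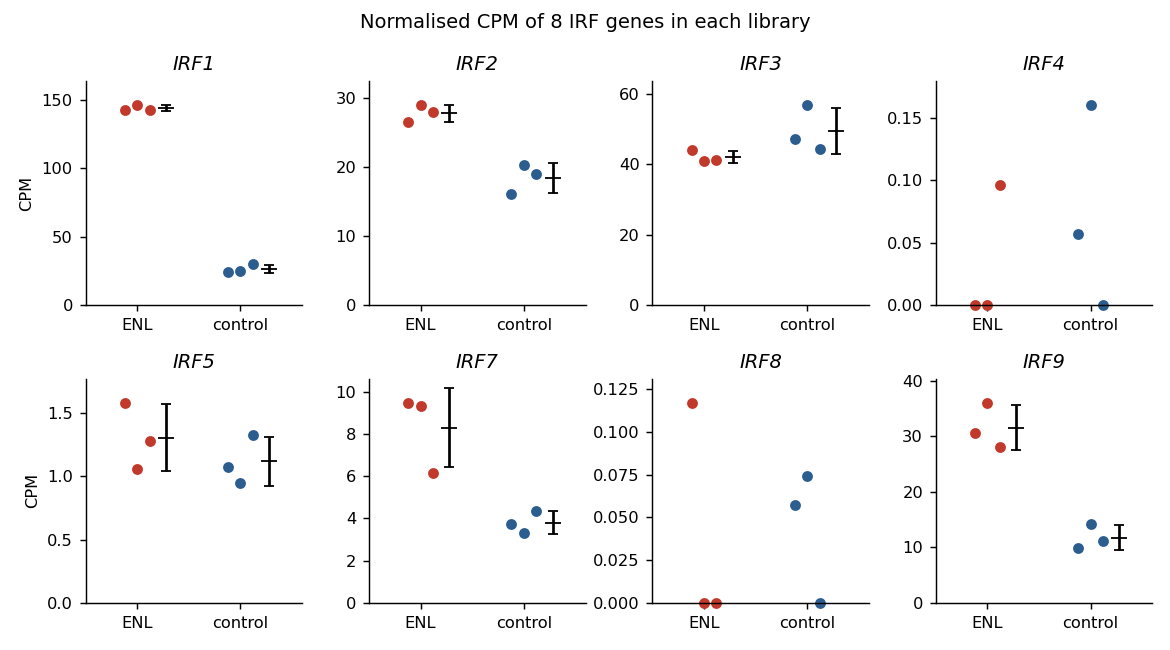
Normalised CPM (vertical axis, linear, starting at 0) of the 8 members in the 3 ENL and 3 control libraries; each coloured point is a library, and the black marks beside the points of the 6 tested members are the mean and SD of the 3 libraries. IRF1 sat between 142 and 146 CPM in ENL and between 24.4 and 30.2 CPM in control, the groups of IRF2, IRF7 and IRF9 also lay apart, and IRF4 and IRF8 were near 0 in every library.

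IRF1, an activator of antigen presentation and antiviral genes, showed the largest difference of the 6 tested members. Its level was 142, 146 and 143 CPM in ENL libraries 1, 2 and 3, against 24.4, 25.2 and 30.2 CPM in control libraries 1, 2 and 3. All ENL libraries were high and close together, and the groups did not overlap. The means were 144 ± 2.14 CPM in ENL and 26.6 ± 3.14 CPM in control (SD, n = 3 each), a 5.41-fold higher mean, and the log2 fold change was 2.44 ± 0.10 (SE). IRF1 lies on chromosome 5, 132481609 to 132490798, on the minus strand (GRCh38, GENCODE 29). Genes on the opposite strand share exon bases with it, 469 with AC116366.3 and 1716 with C5orf56, which was not analysed here. No source used here says that counting used strand, so their reads cannot be told apart from those of IRF1. AC116366.3 had 2.75, 7.84 and 7.56 CPM in ENL and 2.86, 2.90 and 3.53 CPM in control. With its counts added, the log2 fold change of IRF1 was 2.34.

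IRF2, which competes with IRF1 for the same sites, differed in the same direction and by less. It had 26.6, 29.05 and 27.99 CPM in ENL, against 16.1, 20.3 and 19.0 CPM in control. The groups did not overlap, although the control libraries were more spread. The log2 fold change was 0.59 ± 0.12 (means of 27.9 ± 1.23 CPM in ENL and 18.5 ± 2.15 CPM in control). IRF2 lies on chromosome 4, 184387713 to 184474580, on the minus strand.

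The ratio of IRF1 to IRF2 counts within a library does not depend on how the libraries are scaled. It was 5.36, 5.04 and 5.11 in the ENL libraries, against 1.52, 1.24 and 1.59 in the control libraries. The ratio was thus higher in every ENL library than in any control library. On the log2 scale it averaged 2.37 ± 0.05 in ENL and 0.53 ± 0.19 in control (SD, n = 3 each), a difference of 1.84, which stayed between 1.73 and 1.91 with any library left out. The ratio is of counts and is not corrected for transcript length.

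**Figure D2:**
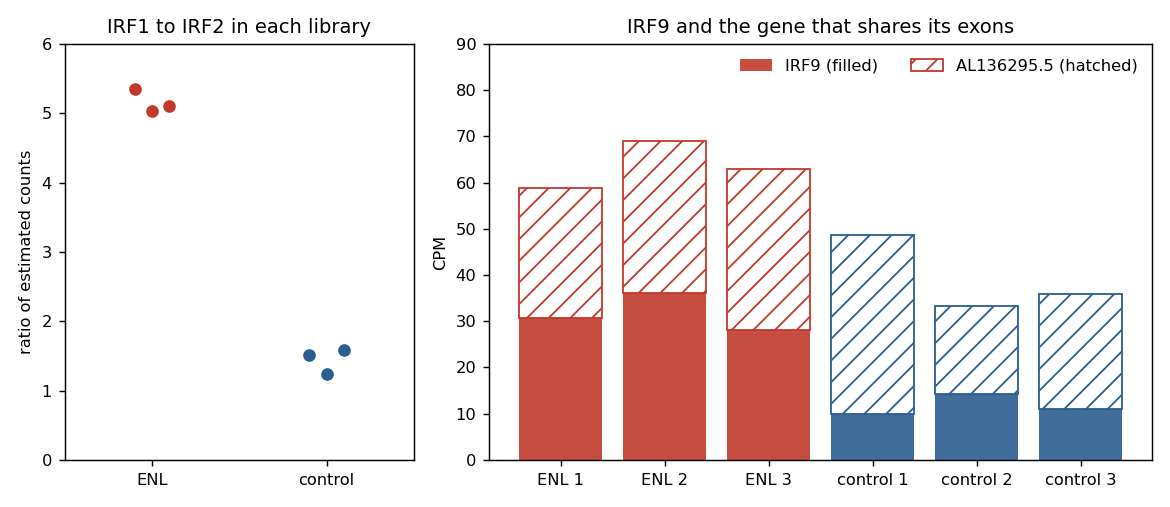
Left, the ratio of IRF1 to IRF2 estimated counts in each ENL and control library (points; linear axis from 0). Right, CPM of IRF9 (filled) stacked with that of AL136295.5 (hatched), the gene that shares its exons, in each library. The IRF1 to IRF2 ratio was 5.04 to 5.36 in ENL and 1.24 to 1.59 in control, and the stacked total was 58.8 to 69.1 CPM in ENL and 33.3 to 48.7 CPM in control.

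IRF9, the DNA-binding subunit of ISGF3, had 30.7, 36.1 and 28.02 CPM in ENL libraries 1, 2 and 3, against 9.89, 14.3 and 11.1 CPM in control libraries 1, 2 and 3. The lowest ENL library was above the highest control library. The means were 31.6 ± 4.11 CPM in ENL and 11.8 ± 2.29 CPM in control, with a log2 fold change of 1.42 ± 0.17 (SE). IRF9 lies on chromosome 14, 24161053 to 24166565, on the plus strand. The gene AL136295.5 shares 1838 exon bases with it on the same strand, so the counting could divide reads between the 2 genes in different ways.

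AL136295.5 had 28.1, 33.0 and 35.0 CPM in ENL, against 38.9, 19.0 and 24.9 CPM in control, and its groups overlapped. The ratio of IRF9 to AL136295.5 was 1.09, 1.09 and 0.801 in ENL and 0.255, 0.753 and 0.446 in control. Summed, the 2 genes had 58.8, 69.1 and 63.0 CPM in ENL, against 48.7, 33.3 and 35.96 CPM in control. The sum was still higher in every ENL library, with a log2 fold change of 0.69, so the size of the IRF9 difference depended on how reads were assigned.

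IRF9 was also set against STAT2, a partner in ISGF3, within each library, a choice made after the values were seen. The ratio of IRF9 to STAT2 counts was 0.750, 1.19 and 0.836 in ENL, against 0.408, 0.605 and 0.375 in control. The ratio was higher in every ENL library than in any control library, and it rests on IRF9 counts that the overlapping gene leaves uncertain.

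Among the members that nucleic acid sensors activate, IRF7, the factor that amplifies type I interferon production, was higher in ENL. It had 9.47, 9.31 and 6.13 CPM in ENL libraries 1, 2 and 3, against 3.72, 3.29 and 4.36 CPM in control libraries 1, 2 and 3. ENL library 3 was the lowest of the ENL libraries and still above every control library. The log2 fold change was 1.13 ± 0.22 (means of 8.30 ± 1.89 CPM in ENL and 3.79 ± 0.54 CPM in control). Without ENL library 3 it was 1.32. IRF7 lies on chromosome 11, 612553 to 615999, on the minus strand.

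IRF3, which starts the interferon response and needs no induction, was lower in ENL and was not among the genes called. It had 43.9, 40.9 and 41.2 CPM in ENL, against 47.2, 56.8 and 44.5 CPM in control. The groups did not overlap, but ENL library 1 and control library 3 lay close together. The log2 fold change was -0.24 ± 0.11 (means of 42.0 ± 1.67 CPM in ENL and 49.5 ± 6.49 CPM in control). With libraries scaled by their totals alone it was -0.44 and among the genes called lower. That scaling moved the median of all tested genes to -0.23. IRF3 lies on chromosome 19, 49659569 to 49665875, on the minus strand. It shares 734 exon bases with BCL2L12 on the opposite strand, and reads there cannot be told apart if counting ignored strand. BCL2L12 had 41.3, 45.5 and 34.2 CPM in ENL and 46.2, 45.9 and 40.6 CPM in control. Summed, IRF3 and BCL2L12 had 85.2, 86.4 and 75.4 CPM in ENL, against 93.4, 103 and 85.1 CPM in control. The groups of this sum overlapped. The ratio of IRF7 to IRF3 counts was 0.216, 0.228 and 0.149 in ENL and 0.0787, 0.0580 and 0.0981 in control.

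IRF5, a factor of inflammatory cytokine genes in myeloid cells, was low in these cells and its groups overlapped. It had 1.58, 1.057 and 1.28 CPM in ENL, against 1.07, 0.950 and 1.33 CPM in control. These are 72 to 108 units in ENL and 77 to 113 units in control, with about 4 units to a fragment. Its log2 fold change was 0.22 ± 0.29, within its error. IRF5 lies on chromosome 7, 128937612 to 128950035, on the plus strand.

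IRF4 and IRF8, factors of lymphocytes, macrophages and dendritic cells, were at or near 0. IRF4 had 0, 0 and 8 units in ENL libraries 1, 2 and 3, against 5, 13 and 0 units in control libraries 1, 2 and 3. IRF8 had 8, 0 and 0 units in ENL, against 5, 6 and 0 units in control. Such values amount to a few fragments, and no difference between the groups was detectable at this depth. IRF4 lies on chromosome 6, 391739 to 411447, and IRF8 on chromosome 16, 85898803 to 85922609, both on the plus strand.

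Leukocyte markers were read beside them. Of 18 markers, CD2, TYROBP and CLEC9A were at 0 in every library and 9 had enough counts to be tested. Of these, CD14 and CSF1R passed as lower in ENL (22.2%, beside 18.4% of all tested genes). The summed level of the list was 55.9 to 63.9 CPM in ENL and 67.5 to 83.7 CPM in control, most of it CD68, a lysosomal gene of many cell types, at 54.0 to 60.8 CPM in ENL and 55.1 to 68.3 CPM in control. Control library 2, which had the highest IRF4 value, was also the library with 97 units of the pan-leukocyte gene PTPRC, 19 of MS4A1 and 16 of CD79B. PTPRC had 0, 16 and 4 units in ENL and 25, 97 and 0 units in control, and the B cell genes MS4A1 and CD79B were at 0 in the other 5 libraries. Control library 2 was also high in markers of other cell types. The basal keratin gene KRT14 had 65, 102 and 47 units in ENL, against 106, 716 and 50 in control. The collagen gene COL3A1 had 427, 387 and 520 units in ENL, against 663, 1617 and 643 in control. The part of these values in those of IRF4 and IRF8 was not tested.

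Levels of different members can be compared only per transcript length. With counts divided by the length of the longest annotated transcript and scaled to the same sum in each library (length-scaled CPM), IRF1 led the 8 members in ENL, with 71.5 ± 6.40 length-scaled CPM (SD, n = 3), followed by IRF3 with 42.9 ± 3.91, IRF9 with 30.4 ± 2.10, IRF2 with 21.5 ± 2.24, IRF7 with 7.10 ± 1.05 and IRF5 with 0.777 ± 0.167. In control IRF3 led with 60.8 ± 6.05 length-scaled CPM, followed by IRF2 with 17.2 ± 1.71, IRF1 with 15.9 ± 2.19, IRF9 with 13.7 ± 2.25, IRF7 with 3.97 ± 0.667 and IRF5 with 0.804 ± 0.159. IRF4 and IRF8 came last in both groups, under 0.1 length-scaled CPM.

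In ENL the libraries of neighbours in this order did not overlap among the 6 tested members. The level and place of IRF9 depend on how reads were divided with AL136295.5. The 1838 exon bases they share are as many as the transcript length used for IRF9. In control IRF2, IRF1 and IRF9 were not apart, with ranges of 15.2 to 18.2, 14.6 to 18.5 and 11.7 to 16.1 length-scaled CPM. With the union of all exons as the length, IRF2 and IRF9 changed places in ENL. As a share of the summed level of the 8 members, IRF1 held 41.0% ± 1.117 in ENL and 14.2% ± 2.27 in control, and IRF3 held 24.6% ± 1.32 in ENL and 54.1% ± 3.31 in control. The summed level of the 8 members was 168, 168 and 187 length-scaled CPM in ENL, against 105, 121 and 111 length-scaled CPM in control. This sum also leaves out the normalisation factors used for CPM.

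**Figure D3:**
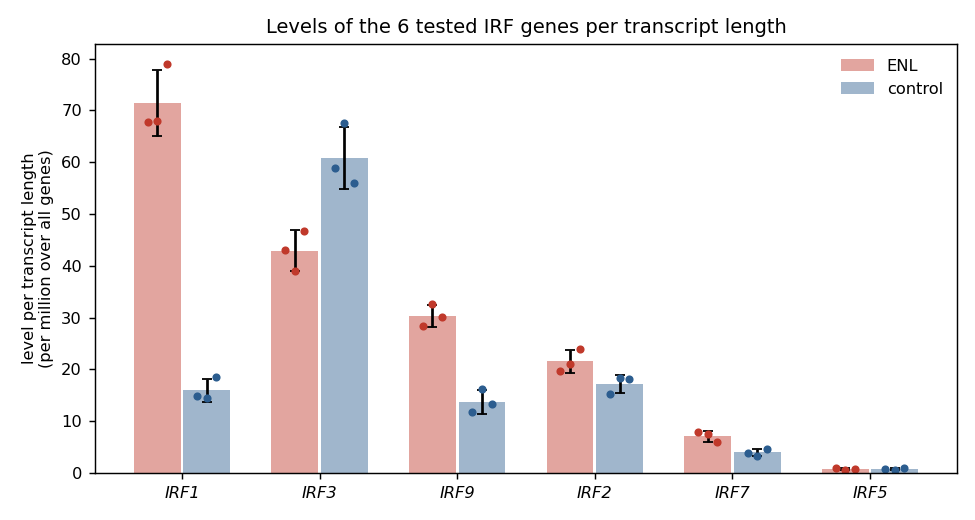
Level per transcript length in length-scaled CPM (vertical axis, from 0), of the 6 tested members; bars are means and error bars SD of 3 libraries, and points are libraries, ENL left of control. IRF1 was the highest member in ENL at 71.5 length-scaled CPM and IRF3 the highest in control at 60.8 length-scaled CPM. The levels leave out the normalisation factors used for CPM.

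Likeness to a member was measured over the 6 libraries as the root mean square difference of log2 CPM after each gene was centred on its own mean, among 10503 genes with at least 5 CPM on average. The libraries fall into 2 groups, so likeness mainly reflects a similar size of difference. The genes nearest to IRF1 were PER1 (0.08), DUSP8 (0.10) and HSPA1A (0.10), which has a near-identical copy, HSPA1B. Those nearest to IRF9 were AATK (0.06), PPP1R32 (0.08) and MVD (0.10). Those nearest to IRF7 were FBXW4 (0.09), RAB3IL1 (0.09) and TNNI3 (0.11), and those nearest to IRF2 were LMBR1L, RFX1 and DPH7 (0.05 each). EIF4E (0.05), the interferon receptor gene IFNAR2 and C8orf37 (0.06 each) were nearest to IRF3, and ZC3H14 (0.06), GORAB (0.09) and CRYZL1 (0.10) to IRF5.

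The genes around the family were taken from lists, and the fit over all genes gave their calls. Upstream of IRF3, IRF5 and IRF7, 7 of 22 tested sensor and adaptor genes rose and 5 fell in ENL (31.8% and 22.7%, beside 20.0% and 18.4% of all tested genes), with a median log2 fold change of 0.27. STING1, the adaptor of cytosolic DNA sensing, fell to 2.14, 1.97 and 1.17 CPM in ENL, against 12.02, 8.32 and 11.5 CPM in control, and the groups lay wide apart. Its log2 fold change was -2.59 ± 0.28 (edgeR adjusted p = 0.000692). The IRF3 and IRF7 kinase gene IKBKE had 1.96, 2.54 and 2.05 CPM in ENL, against 6.64, 7.53 and 8.47 CPM in control (log2 fold change -1.79 ± 0.18, edgeR adjusted p = 0.000567).

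Smaller falls were those of the endosomal DNA receptor gene TLR9 (-1.72 ± 0.33), the RNA-sensing adaptor gene MAVS (-0.47 ± 0.11) and the kinase gene TBK1 (-0.36 ± 0.10). TLR9 was low, with 24, 37 and 54 units in ENL and 154, 120 and 160 units in control. The MAVS call was lost without control library 3 (edgeR adjusted p = 0.0513). The TBK1 call was lost without ENL library 1 or 2 or control library 1 or 3 (edgeR adjusted p from 0.0667 to 0.0978). Without control library 3 the list held 3 genes called lower. The largest rises were those of TRIM25, a ubiquitin ligase of RNA sensing (0.86 ± 0.08, edgeR adjusted p = 0.000431), the transporter SLC15A4, which takes part in endosomal signalling to IRF5 (0.70 ± 0.12), and the TBK1 adaptor genes AZI2 (0.56 ± 0.09) and TBKBP1 (0.55 ± 0.10). The RNA sensor genes DDX58, also named RIGI, and IFIH1 had log2 fold changes of 0.33 ± 0.13 and -0.57 ± 0.21, and the DNA sensor gene CGAS one of 0.20 ± 0.16, and none of these passed. IFIH1 passed as lower without ENL library 3 (-0.73, edgeR adjusted p = 0.0309), as it did with upper-quartile scaling (-0.65) or library totals (-0.77), and DDX58 passed as higher after a length and GC correction (0.44).

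**Figure D4:**
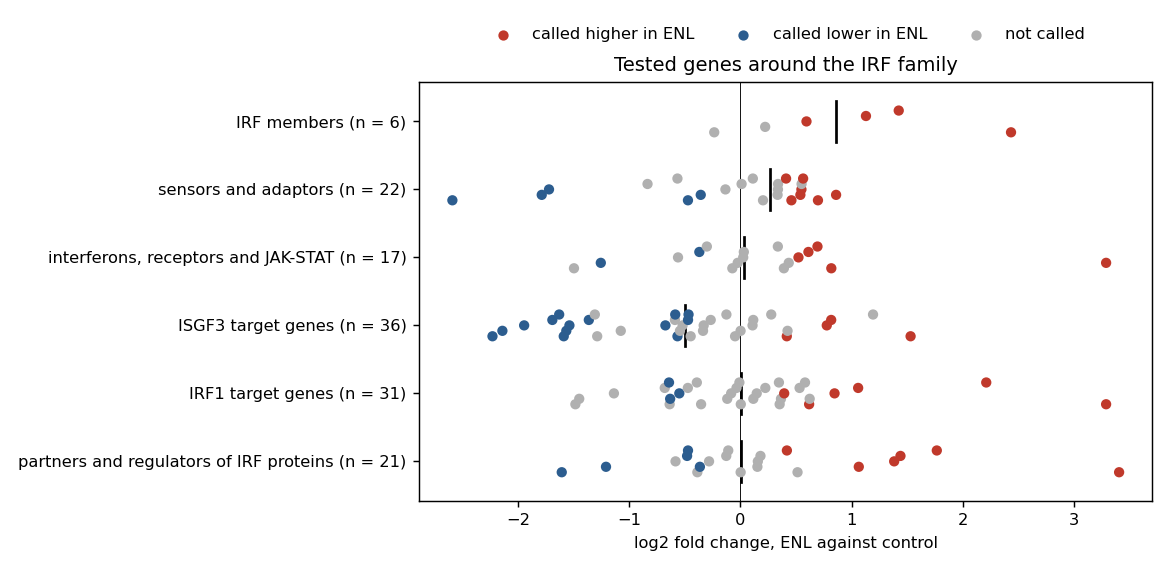
Log2 fold change of ENL against control (horizontal axis) for the tested members of the family and of 5 gene lists; each point is a gene, coloured by whether it passed the threshold as higher or lower in ENL, and the black bar is the median of the row. The medians were 0.86 for the family, 0.27 for sensors and adaptors and -0.50 for ISGF3 target genes, and the other 3 lists lay near 0.

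Between the interferons and IRF9, 5 of 17 tested genes of receptors, kinases and STAT proteins rose and 2 fell (29.4% and 11.8%). Over all tested genes the shares were 20.0% and 18.4%, and the median of the list was 0.03. The interferon gene IFNB1 was at 0 in all but ENL library 3 and control library 3, where it had under 0.1 CPM. SOCS1, an inhibitor of interferon receptor signalling, rose to 8.49, 11.3 and 7.14 CPM in ENL, against 1.15, 0.691 and 0.894 CPM in control. Its log2 fold change was 3.29 ± 0.27 (edgeR adjusted p = 0.000257). The interferon gamma receptor gene IFNGR1 rose by 0.82 ± 0.09, the feedback inhibitor gene SOCS3 by 0.69 ± 0.10, STAT3 by 0.61 ± 0.09 and the kinase gene JAK2, named after its value was seen, by 0.52 ± 0.15.

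STAT2, the ISGF3 subunit gene, had 40.9, 30.3 and 33.5 CPM in ENL and 24.3, 23.7 and 29.6 CPM in control. Its log2 fold change of 0.43 ± 0.15 did not pass (edgeR adjusted p = 0.0550), but passed without ENL library 2 (0.53, adjusted p = 0.0421) or control library 3 (0.55, adjusted p = 0.0497), after a length and GC correction (0.58) and in DESeq2's test (0.44). The kinase gene JAK1 had a log2 fold change of 0.34 ± 0.17, and the type I receptor genes IFNAR1 and IFNAR2 had -0.56 ± 0.32 and -0.30 ± 0.11, none past the threshold. IFNAR1 passed as lower without control library 3 (-0.85, edgeR adjusted p = 0.0194), and IFNAR2 with upper-quartile scaling (-0.39), library totals (-0.51) or the filter at 10 CPM (-0.35). The falls were those of the ISG15 protease gene USP18 (-1.26 ± 0.34) and the interferon gamma receptor gene IFNGR2 (-0.37 ± 0.12). With any library left out at most 1 of these 2 falls passed. The IFNGR2 call was lost without each of the 6 libraries (edgeR adjusted p from 0.0535 to 0.147), and that of USP18 without each but ENL library 1 (edgeR adjusted p from 0.0535 to 0.0771).

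Downstream of IRF9, 4 of 36 tested ISGF3 target genes rose and 14 fell in ENL (11.1% and 38.9%). All tested genes gave 20.0% and 18.4%, and the median log2 fold change of the list was -0.50. The antiviral RNA-binding protein genes IFIT1, IFIT2 and IFIT3 had the largest falls among genes with at least 1 CPM. IFIT2 fell to 3.91, 3.96 and 4.13 CPM in ENL, against 18.8, 17.9 and 19.7 CPM in control, and its log2 fold change was -2.23 ± 0.11 (edgeR adjusted p = 4.2e-05). IFIT1 fell to 3.06, 2.77 and 3.59 CPM in ENL, against 15.9, 13.5 and 12.3 CPM in control, with a log2 fold change of -2.14 ± 0.17. IFIT3 had a log2 fold change of -1.95 ± 0.20 and the membrane protein gene IFITM2, a low gene with a close relative, one of -1.69 ± 0.32. In each of these 4 genes every ENL library lay below every control library. The count of falls was 9 without ENL library 2, control library 2 or control library 3, and 15 at most with another library left out.

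Other ISGF3 targets went the other way. ISG15, a ubiquitin-like antiviral protein, rose to 81.1, 92.5 and 62.1 CPM in ENL, against 43.9, 49.9 and 39.97 CPM in control (log2 fold change 0.82 ± 0.16, edgeR adjusted p = 0.00783). The phospholipid scramblase gene PLSCR1 rose by 0.78 ± 0.14, IFI44L by 1.53 ± 0.39 from a low level, and the nuclear body gene SP100 by 0.42 ± 0.11. The IFI44L call was lost without ENL library 1 or 2 or control library 1 or 2 (edgeR adjusted p from 0.0547 to 0.0623). That of SP100 was lost without ENL library 1 or any control library (edgeR adjusted p from 0.0512 to 0.0731), and with library totals (0.21). The count of rises was 2 without ENL library 1, control library 1 or control library 2.

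**Figure D5:**
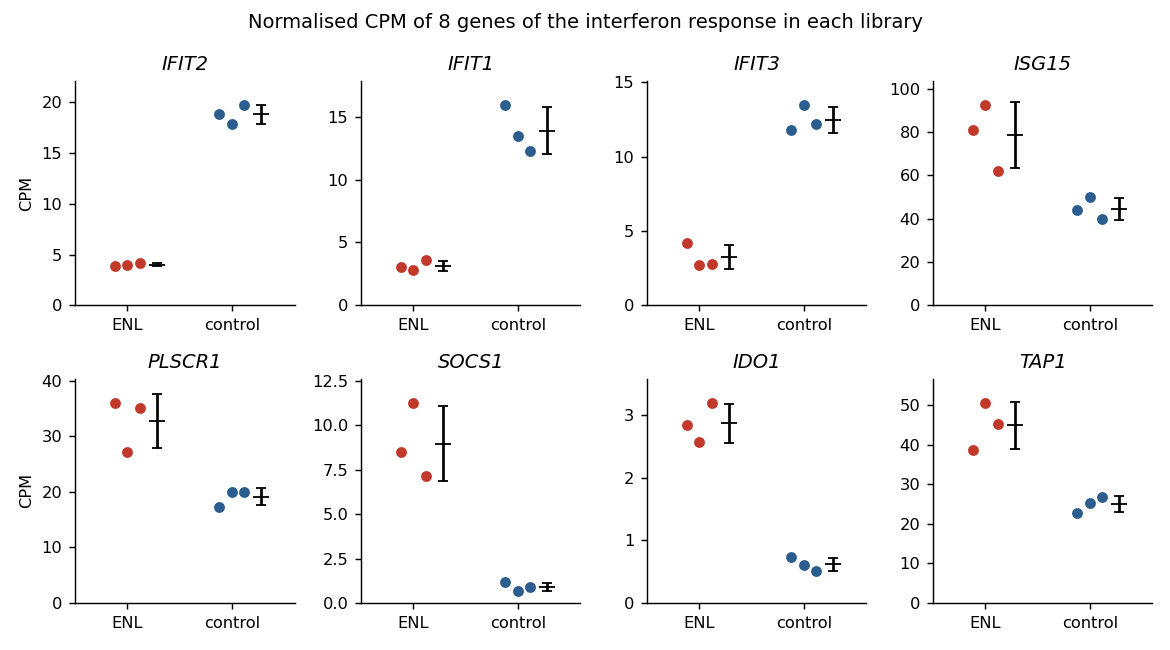
Normalised CPM (vertical axis, from 0) of 8 interferon-response genes, chosen after their values were seen, in the 3 ENL and 3 control libraries; coloured points are libraries and the black marks are the mean and SD of 3. IFIT1, IFIT2 and IFIT3 were lower in every ENL library, with IFIT2 at 3.91 to 4.13 CPM in ENL and 17.9 to 19.7 CPM in control, and the other 5 genes were higher in every ENL library.

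Among genes listed as targets of IRF1, 6 of 31 tested genes rose and 3 fell (19.4% and 9.68%), with a median of 0.00. Of all tested genes, 20.0% rose and 18.4% fell. The listed genes were not searched for IRF1 sites, and the activity of IRF1 was not tested. SOCS1, also in the list above, had the largest rise. The tryptophan-degrading enzyme gene IDO1 rose to 2.84, 2.57 and 3.20 CPM in ENL, against 0.732, 0.605 and 0.518 CPM in control (log2 fold change 2.21 ± 0.25, edgeR adjusted p = 0.000796). The peptide transporter gene TAP1 rose to 38.7, 50.6 and 45.3 CPM in ENL, against 22.8, 25.3 and 26.7 CPM in control (0.85 ± 0.13). The GTPase gene GBP1 rose by 1.059 ± 0.27, a call lost without control library 1 or 3 (edgeR adjusted p = 0.0556 and 0.0527).

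The falls included those of the antigen presentation genes NLRC5 (-0.64 ± 0.20) and TAPBP (-0.55 ± 0.11). The list held 1 fall without ENL library 2, control library 1 or control library 2. The NLRC5 call was lost without each library but ENL library 3 (edgeR adjusted p from 0.0893 to 0.107). The chemokine gene CXCL10, a classic target of IRF1 and IRF3, had under 0.5 CPM in every library and was not tested.

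Of 21 tested genes that encode partners or regulators of IRF proteins, 6 rose and 5 fell (28.6% and 23.8%). This compares with 20.0% and 18.4% of all tested genes, and the median of the list was 0.00. PRDM1, a repressor that acts with IRF4 in plasma cells, rose to 19.3, 21.9 and 23.4 CPM in ENL, against 1.82, 2.10 and 2.16 CPM in control. Its log2 fold change was 3.41 ± 0.15 (edgeR adjusted p = 2.46e-05). The genes of the IRF2 binding proteins did not move together. The corepressor gene IRF2BP2 rose to 617, 594 and 586 CPM in ENL, against 175, 174 and 179 CPM in control (1.77 ± 0.07, edgeR adjusted p = 1.93e-05). IRF2BPL rose by 1.38 ± 0.10, and IRF2BP1 had 29.7, 32.7 and 25.3 CPM in ENL against 40.6, 40.1 and 41.6 CPM in control, a log2 fold change of -0.48 ± 0.11 whose call was lost without control library 3 (edgeR adjusted p = 0.0562).

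RBCK1, a ubiquitin ligase reported to promote turnover of IRF3, rose to 179, 194 and 155 CPM in ENL, against 64.1, 62.9 and 67.4 CPM in control (1.44 ± 0.10). The other falls were those of the Ikaros family gene IKZF2 (-1.61 ± 0.20), the AP-1 partner gene BATF3 (-1.21 ± 0.16), the NF-kB subunit gene NFKB1 (-0.47 ± 0.10) and TRAFD1 (-0.37 ± 0.10), named after its value was seen. Without control library 3 the list held 3 falls. SPI1, the partner of IRF4 and IRF8 in myeloid and B cells, was at 0 in all but ENL library 3 and control library 2, where it had under 0.2 CPM.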

How the data were processed

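RNA sequencing of BT549 gave 3 ENL and 3 control libraries, grouped by title. Per the submitters' processing notes, FastQC, STAR, StringTie, DESeq2 and hg38 were used; their versions and order, the annotation and the strand setting were not given in the sources used here. Deposited by the authors was 1 table of whole-number estimated counts per gene symbol (expected counts). Low values gather at multiples of 4 or 1 above (70.8% to 73.1% of values from 4 to 43). Evenly spread values would fall there less often, though not rarely. So 1 fragment was taken as worth about 4 units, and low values carry more counting error than their size shows.

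The fit used edgeR 4.0.16 in R 4.3.3 with TMM factors, after filterByExpr at a count minimum of 10 (glmQLFit, robust, two-sided, group alone, Benjamini-Hochberg over all tested genes, threshold 0.05). CPM use the same factors. Replicates differed by more than sampling noise (chi-square per degree of freedom of 22.2 or more on counts divided by 4) and were all kept. GENCODE 29 on GRCh38, the hg38 assembly, held 19811 of the 19923 symbols and gave lengths, positions and overlaps of at least 100 exon bases. IRAK4 was listed among the sensors and adaptors but not analysed here, and some genes of the lists are counted but not reported by name.

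Members, lists and tests were chosen with earlier results of these data known. Genes named are the members; per list and direction, the 4 with the largest change past the threshold and at least 1 CPM in the higher group; a fixed set of core pathway genes; overlapping genes; and the nearest 3 by likeness. Markers are named only as needed. Alternatives were DESeq2 1.42.0 size factors and Wald test, upper-quartile scaling, library totals, limma-voom (limma 3.58.1), no filter, at least 10 CPM in 3 libraries, a replicate block, each library left out, counts divided by 4, a length and GC correction, and summed overlapping genes.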

Additional observations from a re-analysis of the deposited data

How the results depend on the processing

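The members' values are given as a description, since the members were chosen on this contrast (IRF7 and IRF5 were not tested at 10 CPM or more). With any library left out, log2 fold changes were 2.38 to 2.54 for IRF1, 0.51 to 0.67 for IRF2, 1.03 to 1.32 for IRF7, 1.32 to 1.59 for IRF9, -0.31 to -0.13 for IRF3 and 0.06 to 0.37 for IRF5, and the cause of these shifts was not tested. Scaling by library totals called 1804 genes higher and 3996 lower, where the main scaling gave 2819 and 2585, put IRF3 among the genes called lower at -0.44, and gave 8 lower sensors and adaptors, 4 lower receptor and JAK-STAT genes, 5 lower IRF1 targets and 8 lower partners. That scaling shifts all genes downwards. At 10 CPM or more fewer genes were tested, with 2 lower sensors and adaptors, 6 lower ISGF3 targets and 3 higher IRF1 targets. The length and GC correction gave 5 lower IRF1 targets, and no filter 1 lower receptor and JAK-STAT gene; the cause was not tested. Leaving out a library gave 2072 to 3156 higher and 1743 to 2877 lower genes. Counts higher and lower were then 5 to 8 and 3 to 7 for sensors and adaptors, 4 to 6 and 0 to 1 for receptor and JAK-STAT genes, 2 to 6 and 9 to 15 for ISGF3 targets, 4 to 8 and 1 to 4 for IRF1 targets, and 5 to 7 and 3 to 7 for partners. Same-numbered ENL and control libraries deviated together only weakly (correlations of 0.03, 0.05 and 0.08). Differently numbered libraries had correlations from -0.08 to 0.03. With so few libraries these values cannot decide whether the numbers pair the samples, and the main fit took them as unpaired. The fit with the replicate block gave 2631 higher and 2310 lower genes and 1 lower receptor and JAK-STAT gene, since IFNGR2 lost its call, as did IFI44L, NLRC5 and FBXW4, among others. By the union of exons, IRF2 took place 3 and IRF9 place 4 in ENL, and in control IRF4 and IRF8, both near 0, took places 7 and 8.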

Other observations

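MYD88, the adaptor of most Toll-like receptors upstream of IRF5 and IRF7, had 1.42, 2.39 and 12.3 CPM in ENL libraries 1, 2 and 3, against 11.9, 8.76 and 8.15 CPM in control libraries 1, 2 and 3. ENL library 3 lay above every control library while the other ENL libraries lay below, and the log2 fold change was -0.84 ± 0.80. RELA, an NF-kB subunit gene, had 71.3, 93.7 and 133 CPM in ENL, against 88.2, 90.9 and 88.0 CPM in control, so that its ENL libraries lay on either side of the control libraries. Both were picked from the lists on the strength of these values.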
